A study of Sus scrofa with 24 samples.

Results

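The 7 genes described here, LYZ, AIF1, CD86, C5AR1, SLC7A7, FCGR1A and CLEC5A, are grouped as general macrophage and myeloid genes, though not all are confined to such cells. They were followed across 3 regions of infarcted pig hearts and 2 treatment arms. A probe was taken as a member when its name in the array files equals the gene's symbol or when an accession given there belongs to that gene. This rule found 16 of the array's 43603 probes, at least 1 for each of the 7 genes, among 6194 named genes with a usable probe. All 16 passed the filter on dim probes. The rule used no measured value, but the 7 genes, and the lists set beside them, were chosen with earlier results of these data known. Counts of them that pass therefore describe these arrays and are not independent support.

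Tissue came from 9 domestic pigs that had each had a closed-chest myocardial infarction followed by reperfusion, with aspirin and clopidogrel given before the infarct and every day after it in both arms. After 1 month the pigs were randomized to receive, through a catheter into the heart muscle, either the secretome of apoptotic peripheral blood mononuclear cells (the mixture that dying white blood cells release into their culture medium) or medium alone as placebo. Tissue was taken 1 month later from the infarct core, from the border zone where the injections were placed, and from a normal region remote from the infarct, and each sample was hybridized to 1 single-colour Agilent array. The infarct core gave 6 secretome and 3 medium arrays, the border zone 6 and 3, and the normal region 4 and 2. The secretome pigs carry the numbers 11, 12, 13, 14, 15 and 16 and the medium pigs 10, 18 and 40, and pigs 12, 13 and 40 have no normal-region array. The labels call the 3 medium pigs not treated, and they are taken here as the placebo arm of the design, which names 8 pigs per arm. The labels used here give neither sex nor age.

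After an infarct, monocytes leave the blood, enter the damaged muscle, become macrophages and clear dead cells, and macrophages persist in the scar while collagen is laid down. LYZ encodes lysozyme, a secreted enzyme that cuts bacterial cell walls and is made in large amounts by macrophages. AIF1 encodes IBA1, a calcium- and actin-binding protein widely used as a macrophage marker. C5AR1 is the receptor for the complement fragment C5a, FCGR1A is the high-affinity receptor for IgG, and CLEC5A is a lectin receptor that signals through the adaptor TYROBP. CD86 is a co-stimulatory ligand for CD28 and CTLA4 on T cells, and SLC7A7 is the light chain of a transporter for cationic amino acids that pairs with SLC3A2.

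The probes are single strands of 60 bases, and those below are copied from the array files in the sense of the message, 5′ to 3′. FCGR1A and CLEC5A rest on the 1 probe shown. For AIF1, C5AR1, CD86 and SLC7A7 the probe shown is the most upstream one of its gene on the array, with listed starts of 401, 599, 376 and 695. It reads a different stretch from the brighter probe that carries the values. The probe shown is also dimmer, so a gap between the readings cannot be tied to position along the transcript, and this was not tested.
AIF1: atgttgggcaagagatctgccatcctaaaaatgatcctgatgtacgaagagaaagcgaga
C5AR1: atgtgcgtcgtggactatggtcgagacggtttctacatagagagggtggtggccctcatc
CD86: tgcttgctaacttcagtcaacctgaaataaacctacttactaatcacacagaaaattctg
SLC7A7: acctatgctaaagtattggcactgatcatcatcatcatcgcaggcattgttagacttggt
FCGR1A: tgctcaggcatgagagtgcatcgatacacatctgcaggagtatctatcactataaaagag
CLEC5A: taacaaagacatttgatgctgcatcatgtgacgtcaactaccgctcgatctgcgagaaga

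LYZ had 3 probes, and 2 of them read almost the same stretch of the message, so they are not independent readings. The 30 bases below are the part where these probes differ, with the run of A in capitals.
LYZ brighter probe: gcaggcattgAAAtaattgctaattaacca
LYZ second probe: gcaggcattgAAtaattgctaattaaccac
The run is 3 bases long in the brighter probe and 2 in the second, the 12 bases up to the difference are shared, and after a gap of 1 base all 43 further bases compared are equal.

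Each level below is the log2 of the background-subtracted signal relative to the 75th percentile of its own array, so that 0 is a probe at that percentile. Levels of different genes come from different probes and are not set against each other. The arrays had 26829 to 32993 probes well above background and a 75th percentile of 210.1 to 617.2 signal units, with the border array of pig 40 lowest in both. The arrays fall into 2 scan series of 12, series 1 with pigs 12, 13, 16, 18 and 40 and series 2 with pigs 10, 11, 14 and 15. Arrays of the same pig, which always share a series, deviated from their group means together, with a mean correlation of 0.58 over 21 pairs. Arrays of different pigs, paired only across different groups of region and arm, did so within a series (0.44 over 94 pairs). Between the series such pairs deviated in opposite directions (-0.45 over 118 pairs). Part of that opposite sign follows from taking each group mean over both series. Tests therefore hold pig as a block, and values within each series are given for the regions and for the arms in the infarct core and the border zone. Of the members, 6 were well above background on all 24 arrays. CLEC5A was so on 20, missing the border arrays of pigs 11 and 13 and the normal-region arrays of pigs 11 and 16, all secretome-treated. No member probe was saturated.

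The regional comparisons ask how the scar differs from muscle far from it and from muscle beside it. All 7 genes rose in the infarct core against the normal region, LYZ by 36.8-fold, CLEC5A by 18.9-fold, C5AR1 by 4.91-fold, AIF1 by 3.79-fold, SLC7A7 by 3.51-fold, CD86 by 2.72-fold and FCGR1A by 1.68-fold. The test was limma across all 34366 kept probes with Benjamini-Hochberg adjustment and a threshold of 0.05, under which 25.4% of all probes rose and 27.6% fell. The median log2 difference was 1.92 over the 7 members and -0.05 over all probes. Each of the 7 genes was higher in the infarct core in 6 of the 6 pigs with both arrays. For 6 of the 7, FCGR1A excepted, every infarct core array lay above every normal-region array, which held for 7.40% of all probes. In bulk tissue, more cells of a type and more RNA per cell cannot be told apart.

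**Figure D1:**
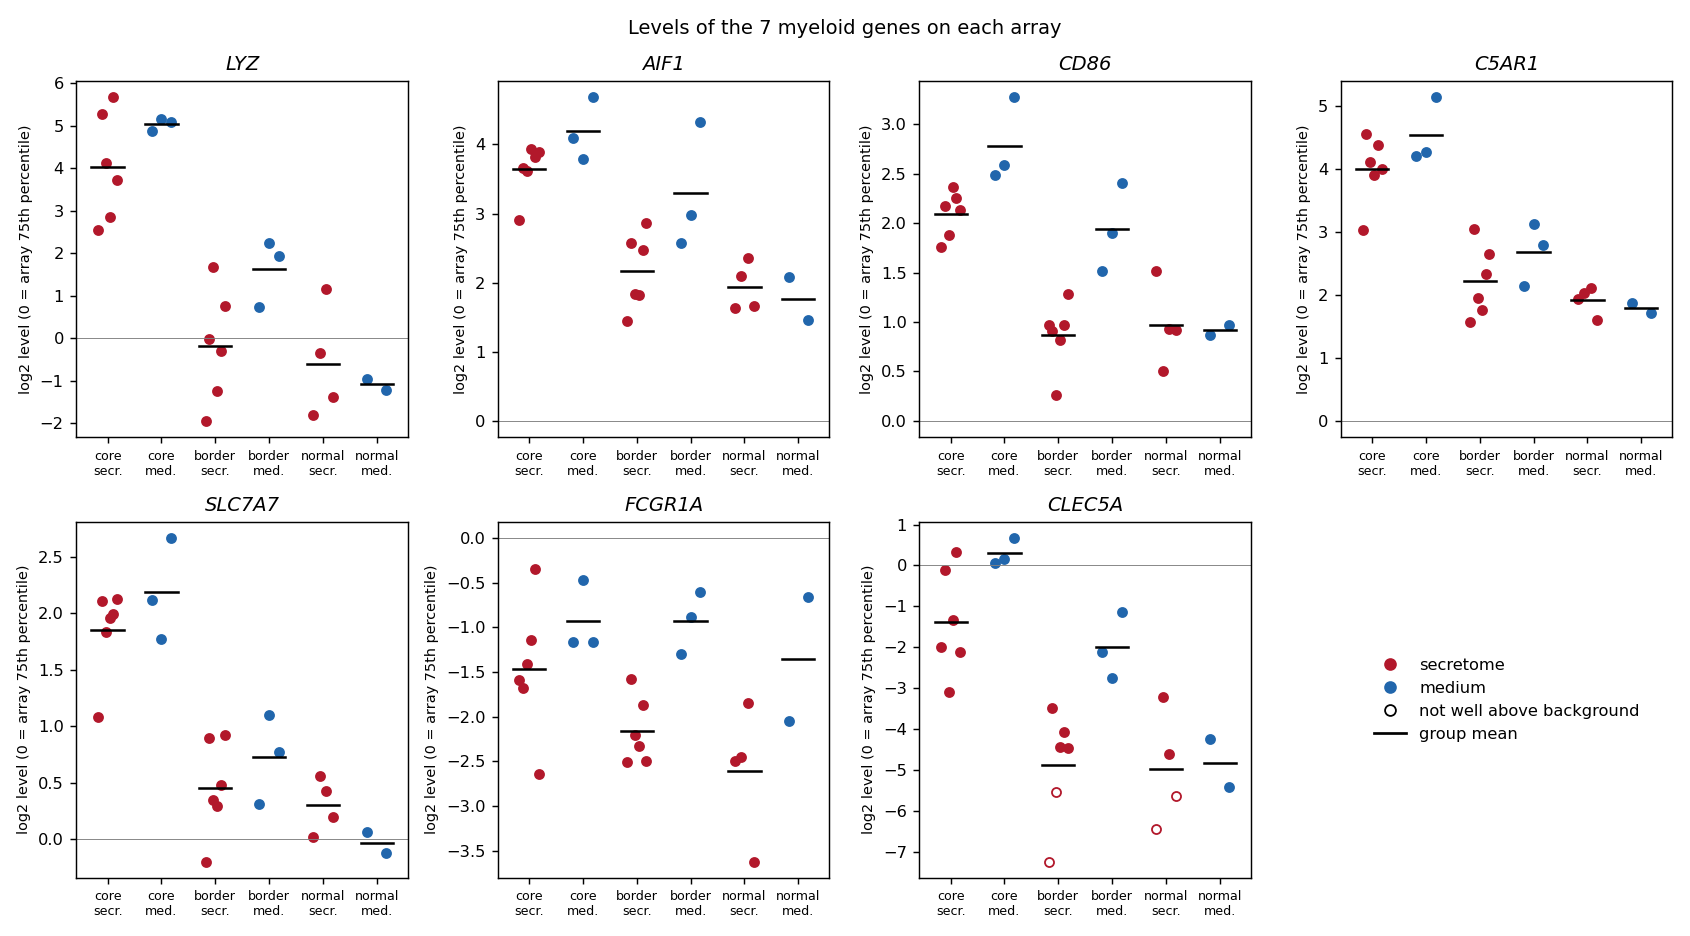
Level of each of the 7 genes on each of the 24 arrays (log2 relative to the array's 75th percentile), with secretome (red) left of medium (blue) in the infarct core, border zone and normal region. Open points mark the 4 CLEC5A arrays not well above background, bars are group means, and the infarct core stands above the normal region for all genes but FCGR1A, whose arrays overlap.

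LYZ, the lysozyme gene, lay at 2.54 to 5.67 with a median of 4.88 on the 9 infarct core arrays, against -1.80 to 1.15 with a median of -1.09 on the 6 normal-region arrays. The lowest infarct core array, that of pig 11, was still above the highest normal-region array, that of pig 15. The log2 difference was 5.20 ± 0.43 (SE, limma adjusted p = 8.24e-08), and within single pigs it ran between 3.20 and 6.37. The 3 LYZ probes gave log2 differences of 4.96 to 5.20, all past the threshold.

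CLEC5A, the TYROBP-coupled lectin receptor, lay at -3.09 to 0.67 with a median of -0.10 in the infarct core, against -6.44 to -3.23 with a median of -5.02 in the normal region. The groups came close, since the infarct core of pig 13 at -3.09 was just above the normal region of pig 14 at -3.23. Its log2 difference was 4.24 ± 0.42 (limma adjusted p = 2.50e-07), and 2 of the 6 normal-region arrays behind it were not well above background. In the authors' deposited normalized values the same probe gave 1.32 (limma adjusted p = 4.20e-06). Differences of dim probes are smaller in those values than in the scanner signals. The probes past the threshold here that the authors' table also holds fell into 4 groups by mean level. These held 2596, 3368, 3665 and 4238 probes from dimmest to brightest. The median ratio of the authors' difference to the scanner difference was 0.072 in the dimmest group, then 0.26, 0.61 and 0.81 in the brightest. The CLEC5A, C5AR1 and SLC7A7 probes of the authors' table lie in the second dimmest group, its CD86 probe in the next, and its LYZ and AIF1 probes in the brightest.

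C5AR1, the C5a receptor, lay at 3.03 to 5.14 with a median of 4.21 in the infarct core, against 1.61 to 2.12 with a median of 1.90 in the normal region. The spread over the normal-region arrays was small and no array of either region entered the range of the other. It rose by 2.30 ± 0.20 on the log2 scale (limma adjusted p = 9.74e-08). Its dimmer probe, shown above, gave 1.62. That same probe is the only 1 of C5AR1 in the authors' table, where it gave 0.56 (limma adjusted p = 1.75e-05).

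AIF1, the macrophage marker IBA1, lay at 2.90 to 4.68 with a median of 3.82 in the infarct core, against 1.46 to 2.36 with a median of 1.87 in the normal region. The regions did not overlap, and the log2 difference was 1.92 ± 0.21 (limma adjusted p = 4.84e-07). The second AIF1 probe, shown above, gave 1.96.

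SLC7A7, the amino acid transporter chain, lay at 1.08 to 2.67 with a median of 2.0 in the infarct core, against -0.12 to 0.56 with a median of 0.13 in the normal region. Again no array of either region entered the range of the other. It rose by 1.81 ± 0.16 on the log2 scale (limma adjusted p = 9.74e-08), and its 4 probes lay between 1.62 and 1.86. The SLC7A7 probe shown above gave 1.86, and 0.51 in the authors' values (limma adjusted p = 8.34e-07).

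CD86, the co-stimulatory ligand, lay at 1.76 to 3.28 with a median of 2.26 in the infarct core, against 0.50 to 1.51 with a median of 0.92 in the normal region. The infarct core of pig 11, the lowest, stood only 0.25 above the normal region of the same pig, which was the highest. CD86 rose by 1.44 ± 0.16 on the log2 scale (limma adjusted p = 5.34e-07), and the 3 probes lay between 1.44 and 1.62. The authors' table holds only the probe that is neither the brightest nor the one shown above, which gave 1.56 from the scanner signals and 0.82 in the authors' values (limma adjusted p = 3.75e-05).

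FCGR1A, the IgG receptor, lay at -2.64 to -0.35 with a median of -1.16 in the infarct core, against -3.62 to -0.66 with a median of -2.25 in the normal region. The regions overlapped over most of their ranges, with pig 16 lowest in both (-2.64 and -3.62) and pig 18 high in both (-0.48 and -0.66). Within each of the 6 pigs the infarct core was higher, by 0.18 to 1.49. FCGR1A rose by 0.75 ± 0.22 on the log2 scale (limma adjusted p = 0.00753). This call was lost without pig 10 (0.50, limma adjusted p = 0.160), within scan series 1 (0.69, limma adjusted p = 0.137) and in a fit with no block for pig (0.78, limma adjusted p = 0.0673).

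Within the scan series, the infarct core minus normal region difference of LYZ was 6.00 in series 1 and 4.93 in series 2, that of CLEC5A 4.73 and 4.03, and that of C5AR1 2.77 and 2.05. AIF1 gave 2.37 and 1.77, SLC7A7 2.08 and 1.70, CD86 1.55 and 1.38, and FCGR1A 0.69 and 1.06. All 7 kept their direction in both series. The normal region of series 1 is secretome pig 16 and medium pig 18 alone, and the medium arm of series 2 is pig 10 alone.

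Against the border zone, 6 of the 7 genes rose in the infarct core, where 23.0% of all probes rose and 23.6% fell. The median log2 difference was 1.43 over the members and -0.01 over all probes. LYZ rose by 14.0-fold, CLEC5A by 7.40-fold, C5AR1 by 3.53-fold, SLC7A7 by 2.69-fold, AIF1 by 2.27-fold and CD86 by 2.05-fold. These 6 were higher in the infarct core in 9 of 9 pigs. FCGR1A was higher in 6 of 9 pigs and did not pass. Border and infarct core arrays of the whole series overlapped for every member but LYZ, a separation that 1.46% of all probes showed.

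LYZ in the border zone ran between -1.95 and 2.24 with a median of 0.74, and its highest array, from medium pig 18, stayed below its lowest infarct core array, from secretome pig 11. It differed by 3.81 ± 0.37 on the log2 scale (limma adjusted p = 1.15e-06), and within single pigs it ran between 2.45 and 5.98. CLEC5A in the border zone ran between -7.24 and -1.14 with a median of -4.06, and 2 of the 9 arrays, including the lowest, were not well above background. Its log2 difference was 2.89 ± 0.36 (limma adjusted p = 8.94e-06). In the authors' values it was 1.09 (limma adjusted p = 1.53e-05).

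C5AR1 in the border zone ran between 1.56 and 3.13 with a median of 2.33, and only the infarct core array of pig 11 fell inside that range. Its log2 difference was 1.82 ± 0.17 (limma adjusted p = 9.63e-07). SLC7A7 showed the same single overlap, with border arrays between -0.20 and 1.10 and a median of 0.48. Its log2 difference was 1.42 ± 0.14 (limma adjusted p = 9.77e-07). Their probes shown above gave 1.45 and 1.51, against 0.53 for C5AR1 and 0.47 for SLC7A7 in the authors' values, all past the threshold.

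AIF1 in the border zone ran between 1.44 and 4.32 with a median of 2.57. The top of that range was the border array of medium pig 40, which lay inside the range of the infarct core, as did that of medium pig 18 at 2.98. The log2 difference was 1.18 ± 0.18 (limma adjusted p = 3.22e-05). CD86 ran between 0.27 and 2.41 with a median of 0.97, again with pig 40 highest, and its log2 difference was 1.03 ± 0.13 (limma adjusted p = 1.17e-05). The CD86 probe in the authors' table gave 1.08 from the scanner signals and 0.63 in the authors' values. FCGR1A ran between -2.50 and -0.60 with a median of -1.87, nearly the same range as in the infarct core, and its log2 difference was 0.35 ± 0.19 (95% interval -0.06 to 0.75, limma adjusted p = 0.149).

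Within the scan series, the infarct core minus border zone difference of LYZ was 3.31 in series 1 and 4.50 in series 2, that of CLEC5A 2.54 and 3.20, and that of C5AR1 1.71 and 1.98. SLC7A7 gave 1.29 and 1.65, AIF1 0.94 and 1.58, and CD86 1.01 and 1.09. These 6 were above 0 in both series, and the medium arm of series 2 is pig 10 alone. FCGR1A, at 0.053 and 0.67, passed in neither (limma adjusted p = 0.889 and 0.130).

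**Figure D2:**
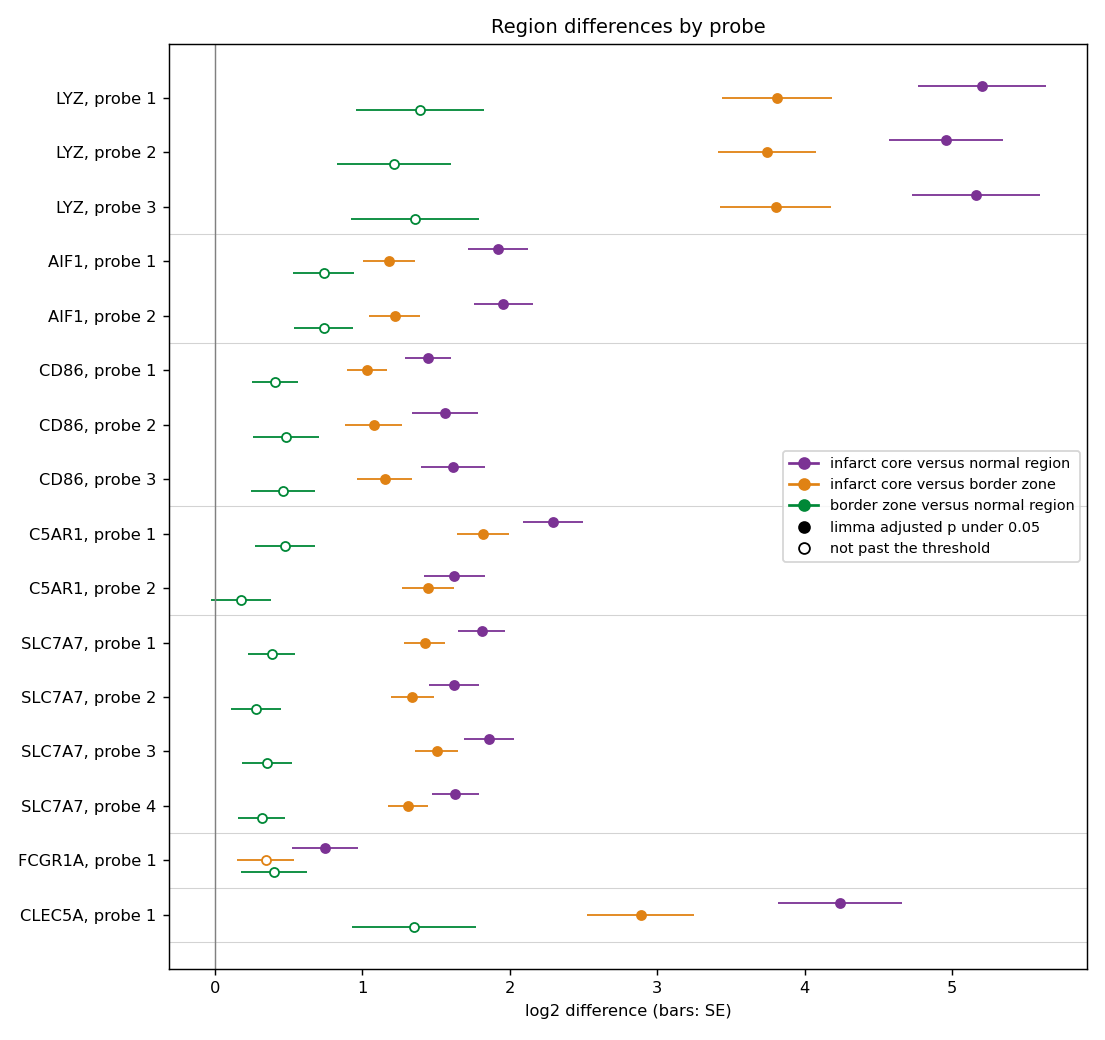
Log2 difference (horizontal axis, bars are SE) of each of the 16 member probes in the infarct core against the normal region (purple), the infarct core against the border zone (orange) and the border zone against the normal region (green), probe 1 being the brightest of its gene. Filled points passed limma's adjusted threshold: 16 of 16 probes in purple, 15 of 16 in orange and 0 of 16 in green.

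In the border zone against the normal region, 0 of the 7 genes passed, where 0.457% of all probes rose. All 7 differences were above 0, with a median of 0.48 against -0.02 over all probes, and 6 of the 7 had an unadjusted limma p under 0.05, which 8.74% of all probes reached upward. The log2 differences were 1.39 ± 0.43 for LYZ (limma adjusted p = 0.140), 1.35 ± 0.42 for CLEC5A (0.140) and 0.74 ± 0.21 for AIF1 (0.104). The other four lay between 0.39 ± 0.16 for SLC7A7 and 0.48 ± 0.20 for C5AR1, with adjusted p between 0.233 and 0.416. The pigs did not move together. LYZ was higher in the border zone in 3 of 6 pigs, with differences of -1.46 to 3.46, and FCGR1A likewise in 3 of 6. AIF1, C5AR1, SLC7A7 and CLEC5A were higher in 4 of 6 pigs and CD86 in 5 of 6. Secretome pig 16 had higher border levels of all 7 genes, medium pig 10 likewise of all 7, and medium pig 18 of all but FCGR1A.

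All 7 of these differences were larger within scan series 1, which holds pigs 16 and 18, than within series 2. The normal region of series 1 is secretome pig 16 and medium pig 18 alone, and the medium arm of series 2 is pig 10 alone. LYZ passed within series 1 (2.70, limma adjusted p = 0.0485), and gave 0.44 within series 2 (limma adjusted p = 0.9995). Without passing in either, CLEC5A gave 2.18 and 0.83, AIF1 1.44 and 0.18, C5AR1 1.06 and 0.067, SLC7A7 0.79 and 0.055, FCGR1A 0.64 and 0.39, and CD86 0.54 and 0.29. Without pig 18, C5AR1 gave 0.25, SLC7A7 0.20 and FCGR1A 0.69, and without pig 10 FCGR1A gave 0.19.

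**Figure D3:**
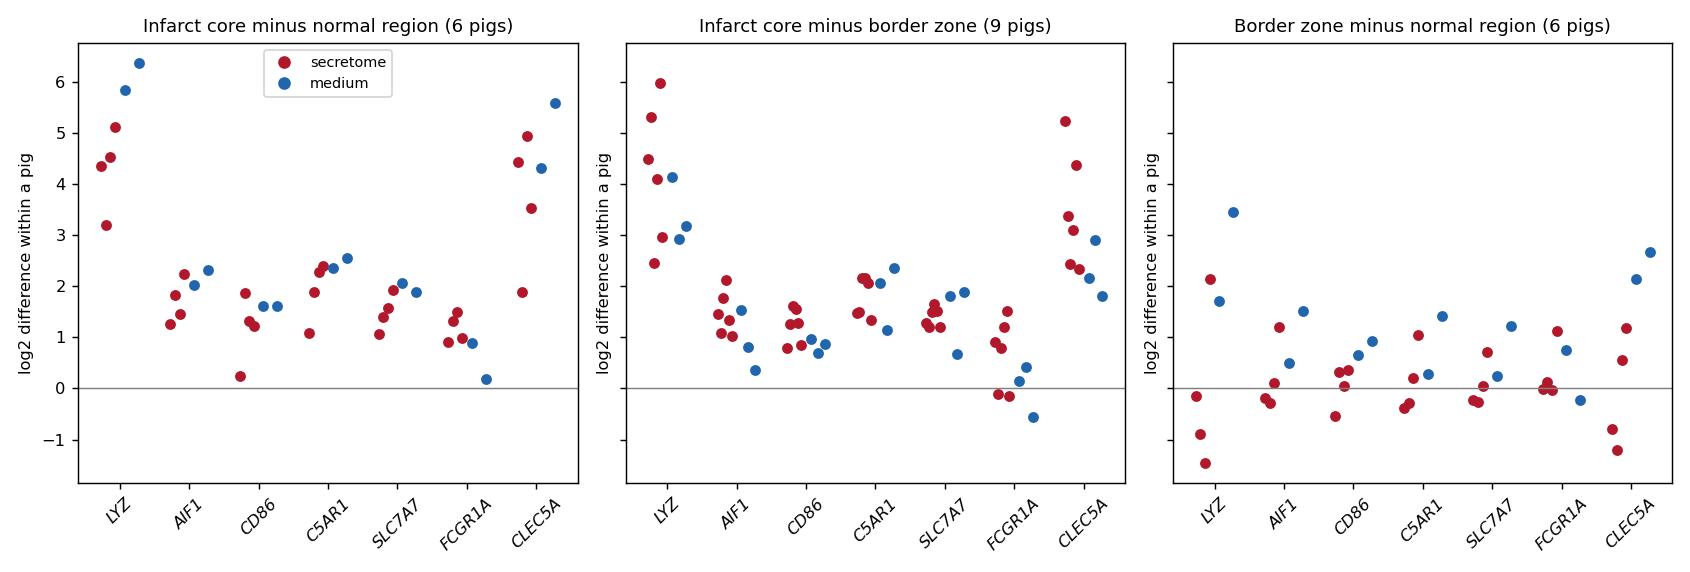
Log2 difference between 2 regions of the same pig for each gene, with secretome pigs (red) left of medium pigs (blue) in the infarct core minus normal region, infarct core minus border zone and border zone minus normal region. All points lie above 0 in the first panel, all but 3 of FCGR1A in the second, and points fall on both sides of 0 in the third.

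The comparison of the arms asks whether secretome-injected hearts carried other levels of these genes than placebo hearts. In the infarct core none of the 7 passed, where 0.0145% of all probes, 5 in number, were lower with secretome. All 7 differences were below 0, with a median of -0.55 against -0.04 over all probes, and each had a limma adjusted p of 0.974. CLEC5A and CD86, 2 of the 7, were lower at an unadjusted limma p under 0.05, which 3.01% of all probes reached downward. With 6 and 3 arrays, a simulated 2-fold change was recovered for 24 of 200 probes in this comparison and a 4-fold change for 144 of 200. The simulated data held no scan series effect.

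CLEC5A in the infarct core lay at -3.09 to 0.32 with a median of -1.68 in the 6 secretome pigs, against 0.06, 0.16 and 0.67 in medium pigs 10, 18 and 40. Secretome pig 15 alone reached the medium range, with pig 12 just below it. The log2 difference was -1.69 (95% interval -3.27 to -0.10), and -0.96 in the authors' values. CD86 lay at 1.76 to 2.37 with a median of 2.15 with secretome, against 2.49, 2.59 and 3.28 with medium. All secretome arrays were below all medium arrays, which 1.45% of all probes showed, and the log2 difference was -0.69 (95% interval -1.28 to -0.10), or -0.44 without pig 40. LYZ lay at 2.54 to 5.67 with secretome, around the medium values of 4.88, 5.16 and 5.10, and differed by -1.01 (95% interval -2.65 to 0.62).

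AIF1 differed by -0.55 (95% interval -1.33 to 0.23), C5AR1 by -0.54 (-1.31 to 0.22), FCGR1A by -0.53 (-1.38 to 0.31) and SLC7A7 by -0.34 (-0.94 to 0.27). The infarct core of pig 40 was the highest of the 9 for AIF1, CD86, C5AR1, SLC7A7 and CLEC5A, and that of secretome pig 11 the lowest for LYZ, AIF1, CD86, C5AR1 and SLC7A7. Without pig 40, the differences of AIF1, C5AR1 and SLC7A7 were -0.30, -0.24 and -0.10. C5AR1 gave -0.35 without pig 11, SLC7A7 -0.18 without pig 11 and -0.54 without pig 18, and FCGR1A -0.30 without pig 16 and likewise without pig 18. Within the scan series FCGR1A differed by -1.09 in series 1 and by 0.14 in series 2, and the other 6 genes were lower with secretome in both. CLEC5A gave -2.18 and -1.07, LYZ -0.75 and -1.19, CD86 -0.87 and -0.36, AIF1 -0.51 and -0.54, C5AR1 -0.48 and -0.43, and SLC7A7 -0.20 and -0.44.

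In the border zone, the injected region, none of the 7 genes passed either, and 0% of all probes did, although 2475 probes had an unadjusted limma p under 0.05. All 7 members were again lower with secretome, with a median log2 difference of -1.12 against -0.03 over all probes. Of the 7, 5 had an unadjusted limma p under 0.05 and 3 did not overlap between the arms, which 3.70% and 1.10% of all probes showed downward.

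CLEC5A in the border zone had levels of -7.24, -3.49, -5.53, -4.44, -4.06 and -4.45 in secretome pigs 11 to 16, against -2.11, -2.75 and -1.14 in medium pigs 10, 18 and 40. Every secretome array was below every medium array, and 2 of them, of pigs 11 and 13, were not well above background. The log2 difference was -2.87 ± 0.76 (95% interval -4.46 to -1.28, limma unadjusted p = 0.00116, adjusted p = 0.662). It was -2.55 within scan series 1 and -3.14 within series 2, where medium pig 10 stands alone, and -0.56 in the authors' values.

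CD86 in the border zone had levels of 0.97, 0.91, 0.27, 0.82, 0.97 and 1.28 in secretome pigs 11 to 16, against 1.52, 1.90 and 2.41 in medium pigs 10, 18 and 40. The arms did not overlap. The log2 difference was -1.07 ± 0.28 (95% interval -1.66 to -0.48, limma unadjusted p = 0.00110, adjusted p = 0.662), with -1.34 within series 1 and -0.60 within series 2. The CD86 probe in the authors' table gave -1.08 from the scanner signals and -0.49 in the authors' values. FCGR1A had levels of -2.50, -1.57, -2.20, -2.33, -1.87 and -2.49 with secretome, against -1.30, -0.89 and -0.60 with medium. Its arms did not overlap either, with a log2 difference of -1.23 ± 0.41 (95% interval -2.08 to -0.39, limma adjusted p = 0.662), -1.34 within series 1 and -0.94 within series 2.

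AIF1 and LYZ overlapped between the arms in the border zone. AIF1 lay at 1.44 to 2.87 with secretome, against 2.57, 2.98 and 4.32 with medium, and differed by -1.12 ± 0.37 (limma adjusted p = 0.662). Without pig 40, whose border array was the highest for AIF1 and the dimmest of all, the difference was -0.61. That array was also the highest for CD86, FCGR1A and CLEC5A, which differed by -0.84, -1.07 and -2.44 without pig 40. LYZ lay at -1.95 to 1.68 with secretome, against 0.74, 2.24 and 1.92 with medium, and differed by -1.82 ± 0.79 (limma adjusted p = 0.685). C5AR1 differed by -0.47 (95% interval -1.24 to 0.29) and SLC7A7 by -0.27 (-0.88 to 0.33). Without pig 18 these were -0.25 for C5AR1 and -0.086 for SLC7A7, without pig 10 they were -0.75 and -0.48, and without pig 11 SLC7A7 gave -0.14. In the authors' values, C5AR1 and SLC7A7 gave -0.032 and -0.0089 from the probes shown above. Those same probes gave -0.15 and -0.18 from the scanner signals. AIF1 gave -1.23 within series 1 and -0.66 within series 2, LYZ -1.28 and -1.91, C5AR1 -0.41 and -0.27, and SLC7A7 -0.22 and -0.12.

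In the normal region, with 4 secretome and 2 medium arrays, 0 of the 7 genes passed and 0% of all probes did. FCGR1A had levels of -2.49, -2.45, -1.84 and -3.62 in secretome pigs 11, 14, 15 and 16, against -2.04 and -0.66 in medium pigs 10 and 18. The arms overlapped, and the log2 difference was -1.23 ± 0.46 (95% interval -2.20 to -0.27, limma unadjusted p = 0.0145, adjusted p = 1). It alone of the 7 had an unadjusted p under 0.05, which 0.783% of all probes reached downward, and it gave -2.72 within series 1 (1 array per arm) and -0.22 within series 2. The other 6 lay between -0.34 for CLEC5A and 0.73 for LYZ, with intervals that all included 0. LYZ ran between -1.80 and 1.15 with secretome, against -0.97 and -1.21 with medium.

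Whether the arms differed by another amount in the infarct core than in the border zone was tested by the interaction, and 0 of 7 genes passed, as did 0% of all probes (limma adjusted p 0.841 to 0.983). The interaction was 1.18 (95% interval -0.33 to 2.69) for CLEC5A, 0.80 (-0.75 to 2.36) for LYZ, 0.70 (-0.10 to 1.5) for FCGR1A and 0.57 (-0.17 to 1.31) for AIF1. Without pig 40 it was 0.42 for FCGR1A and 0.30 for AIF1, without pig 10 it was 0.89 for AIF1, and without pig 15 it was 0.45 for LYZ. Between infarct core and normal region, too, 0 of 7 members and 0% of all probes passed, with interactions of -1.74 for LYZ (95% interval -3.54 to 0.05) to 0.70 for FCGR1A. No member's brightest probe had an unadjusted p under 0.05 in either interaction. Of all 16 member probes, 2 did so between infarct core and normal region. These were a dimmer LYZ probe at -1.74 (limma unadjusted p = 0.0354, adjusted p = 0.9997) and the SLC7A7 probe shown above at -0.87 (limma unadjusted p = 0.0177, adjusted p = 0.9997). A difference between regions in how far the arms lay apart is thus not shown for any of the 7 genes.

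**Figure D4:**
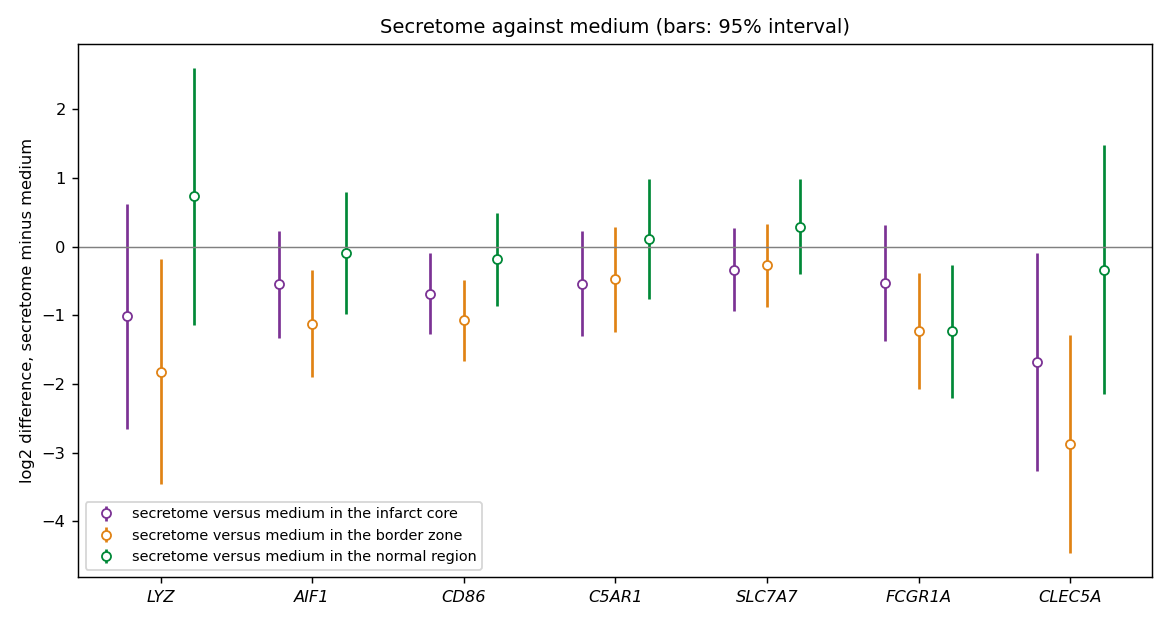
Log2 difference between secretome and medium (vertical axis, bars are 95% intervals from limma) for each gene in the infarct core (purple), border zone (orange) and normal region (green). All points are open because none passed the adjusted threshold, and all 7 purple and all 7 orange points lie below 0.

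Genes that work with the 7 members were followed as a list of 14 partners, of which 10 were measured. In the infarct core against the normal region 7 rose, 1 fell and 2 did not pass, with a median log2 difference of 1.46. The signalling partners of the receptors rose: TYROBP, the adaptor of CLEC5A, by 1.54 ± 0.19 on the log2 scale, FCER1G, the signalling chain of FCGR1A, by 1.63 ± 0.18, and SYK, the kinase downstream of both, by 1.64 ± 0.21 (limma adjusted p at most 2.46e-06). HCST, another adaptor, gave 0.39 ± 0.21 (limma adjusted p = 0.114). FCGR1A itself showed a log2 difference of 0.75, next to 1.63 for its signalling chain, which other receptors also use.

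Among the complement partners, C3 rose by 1.94 ± 0.22 (limma adjusted p = 9.69e-07), and C5, the precursor of the ligand of C5AR1, fell by 1.69 ± 0.33 on the log2 scale (limma adjusted p = 0.000244). CD80, the other ligand of CD28 and CTLA4, rose by 1.38 ± 0.23 (limma adjusted p = 4.50e-05). CTLA4, well above background on only 15 arrays, gave 0.85 ± 0.37 (limma adjusted p = 0.0595). SLC3A2, the heavy chain that pairs with SLC7A7 and with several other light chains, rose by 0.50 ± 0.13 (limma adjusted p = 0.00268). SPI1, which encodes the myeloid transcription factor PU.1, was well above background on all 9 infarct core arrays and on none of the 6 normal-region arrays. As a floor, each normal-region array was given its dimmest signal still well above background, or SPI1's own signal where that was higher. Against this floor the infarct core mean was 3.78-fold higher. The limma adjusted p of 8.22e-06 belongs to the signals as measured, not to this fold.

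Against the border zone the counts of the partners were again 7 higher, 1 lower and 2 not passing, with C5 at -1.28 ± 0.29. In the border zone against the normal region, and between the arms in any region, 0 of the 10 passed. CD80 had the lowest value of the border zone with secretome against medium, -1.09 ± 0.42 (limma adjusted p = 0.662).

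**Figure D5:**
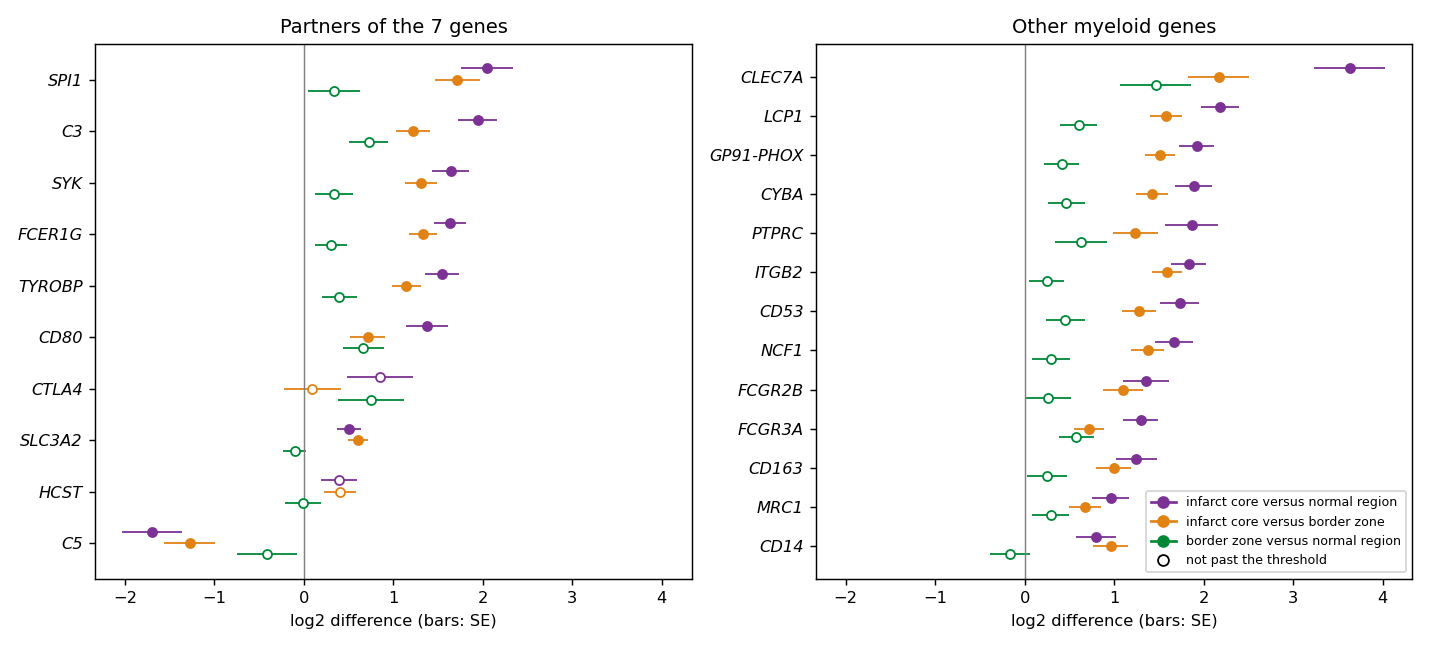
Log2 difference (bars are SE) of 10 partner genes and 13 of the other myeloid genes in the infarct core against the normal region (purple), the infarct core against the border zone (orange) and the border zone against the normal region (green). All 13 myeloid genes are filled, past the threshold, in purple and orange, C5 lies below 0, and no green point is filled.

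Of 27 other myeloid genes, 14 were measured, and all 14 rose in the infarct core, against the normal region with a median log2 difference of 1.78 and against the border zone with 1.33. LCP1, an actin-bundling protein of white blood cells, gave 2.18 ± 0.21 against the normal region, and GP91-PHOX, the catalytic chain of the phagocyte oxidase, 1.92 ± 0.20. In the border zone against the normal region 0 of 14 passed (median 0.43), and between the arms 0 of 14 passed, with medians of -0.75 in the core and -0.63 in the border.

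Some markers of other cells also differed between the regions and others did not, and their part in the members' differences was not tested. The sums given here are linear levels in units of the array's 75th percentile. Of the neutrophil list 7 of 12 were measured, and in the infarct core against the normal region none rose and CXCR2 fell by 0.64 on the log2 scale. S100A8 gave 1.17 ± 0.64 (limma adjusted p = 0.132), and the neutrophil sum was 1.36 to 6.45 in the infarct core, 1.60 to 5.95 in the border zone and 2.48 to 3.40 in the normal region. Of the T and NK cell list 9 of 9 were measured and 7 rose, NKG7 by 1.84 and CD3D by 1.62, with sums of 50.2 to 134.1, 36.2 to 231.1 and 55.2 to 161.3 in the same order. Of 7 B cell markers 3 were measured, and PAX5 fell by 1.17 on the log2 scale. CD79A, not well above background on any normal-region array, was 4.84-fold higher in the infarct core against a floor set as for SPI1. The B cell sums were 0.26 to 0.68 in the infarct core, 0.32 to 0.78 in the border zone and 0.32 to 1.51 in the normal region.

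Of 9 dendritic cell markers 3 were measured and CCR7 and CD83 rose, by 1.24 and 1.54, with sums of 0.37 to 1.00, 0.26 to 0.53 and 0.32 to 0.53. Of 5 mast cell markers KIT and MS4A2 were measured and both rose, by 0.74 and 0.79, with sums of 2.80 to 8.01, 1.77 to 3.73 and 1.82 to 3.80. All 5 measured fibroblast genes of 8 rose, FN1 by 4.61, POSTN by 4.54 and COL1A2 by 3.37, with sums of 381.5 to 971.2 in the infarct core, 101.5 to 466.6 in the border zone and 113.6 to 205.5 in the normal region. In the border zone against the normal region 2 of these 5 rose. All 7 measured cardiomyocyte genes of 12 fell, ATP2A2 by 2.60, PLN by 2.55 and MB by 3.0, with sums of 109.2 to 4508 in the infarct core, 2098 to 5773 in the border zone and 3557 to 5901 in the normal region. The lowest cardiomyocyte sum was that of the infarct core of pig 40, which was also the highest array for 5 of the 7 members. Of 5 endothelial markers measured of 8, TEK and KDR fell, by 0.42 and 0.58, with sums of 27.1 to 59.1, 13.7 to 83.1 and 35.0 to 87.0. Of 5 red blood cell markers 2 were measured and HBB fell by 2.19, with sums of 0.01 to 0.14, 0.03 to 0.23 and 0.04 to 0.27.

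Between the arms none of these markers passed in any region. With secretome against medium, the T and NK cell list had a median log2 difference of -1.23 in the core and -1.90 in the border, further from 0 than the members' medians of -0.55 and -1.12. The fibroblast median was -0.24 in the core and -1.19 in the border, and the cardiomyocyte median 1.67 and 0.65. The T and NK cell sum in the border zone was 36.2 to 126.4 in the secretome arm, against 51.9 to 231.1 in the medium arm.

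The members varied together over the 24 arrays, which share pigs and scan series, so that the correlations describe these arrays only. Over the 15 pairs without FCGR1A the correlation of levels was 0.80 to 0.98, and C5AR1 with SLC7A7 was highest. Over the 6 pairs with FCGR1A it was 0.42 to 0.65. After the mean of each region and arm was removed, the correlation ran between -0.09 for LYZ with CD86 and 0.90 for C5AR1 with SLC7A7, with a median of 0.46 over the 21 pairs. Across pigs of one group, then, C5AR1 and SLC7A7 tended to stand high or low on the same arrays, and LYZ and CD86 did not.

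The genes whose levels over the 24 arrays followed each member most closely were picked by Pearson's correlation. For C5AR1 they were GP91-PHOX at 0.97 and CTSK, the collagen-cutting protease cathepsin K, at 0.97. For SLC7A7 the closest was LIPA, the lysosomal acid lipase, at 0.98. For AIF1 they were RGS10, a regulator of G-protein signalling, and BLNK, an adaptor of immune receptor signalling, both at 0.97. For LYZ they were CEBPA, a myeloid transcription factor, at 0.94 and GP91-PHOX at 0.92. For CD86 they were PPT1, a lysosomal thioesterase, at 0.93 and CCRL2, a chemokine-binding receptor, at 0.92. For CLEC5A they were TNFSF13B, the B cell survival factor BAFF, at 0.92 and LCP1 at 0.92. For FCGR1A they were FADS1, a fatty acid desaturase, at 0.81 and the interferon-induced gene ISG12(A) at 0.79. Those named for the first 6 members all rose in the infarct core against the normal region, by 1.13 to 2.87 on the log2 scale. Those of FCGR1A did not pass (0.30 and 0.40, limma adjusted p = 0.113 and 0.0649). Because the genes were picked over arrays of all regions, with region means left in, such a rise follows largely from the choice and is no separate support.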

How the data were processed

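RNA of 24 heart samples from 9 pigs was measured on single-colour Agilent porcine arrays, 1 per sample. The authors deposited each array's scanner output, with spot intensity after background subtraction; its software, per the file headers, was Agilent Feature Extraction 10.7.3.1. The deposited series table holds log2 values that the authors normalized, with limma 3.14.4 named in the submitters' processing notes. Their method is not given in the sources used here. The table's scale is log2 and each of its 24 columns followed its own array best (correlation 0.73 to 0.82 of probe-centred values), but the scaling behind its column medians of 7.684 to 7.692 stays unknown, its differences shrink as probes get dimmer, and it served as an alternative. It holds 33348 probes, 26227 of them kept here, the main probe of 3 of the 7 members and none of FCGR1A.

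Flagged spots were left out, 1 to 27 per array. The processed signal was divided by the array's 75th percentile and put on the log2 scale. Probes well above background on at least 3 arrays were kept (34366). A symbol was found for 14260 probes (9504 through RefSeq accessions, 1461 through gene IDs and 3295 through names in the files), 40 had several and 29303 none. A gene was read from its brightest kept probe, and a listed gene was also matched through a RefSeq synonym (1 gene).

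limma 3.58.1 (R 4.3.3, statmod 1.5.0) fitted a mean per region and arm on all 24 arrays, taking pig as a random block with an estimated correlation of 0.548, and Benjamini-Hochberg adjustment over all kept probes at 0.05. Region comparisons weight both arms equally. The pairing comes from the pig numbers in the labels. All 21 same-pig pairs of arrays had deviations correlated above 0.1, but arrays of the same pig also share a scan series. With scan series in the fit, the block correlation was 0.204. The same fit was tested on simulated data with 200 changed probes: a 2-fold change was recovered for 111 probes in the infarct core against the normal region, 116 against the border zone and 109 in the border zone against the normal region, and for 24, 19 and 3 between the arms in the infarct core, border zone and normal region. A 4-fold change was recovered for 185, 189, 178, 144, 133 and 116. The simulated data held a fixed pig correlation, no scan series effect and only these 200 changed probes. In the real infarct core against the normal region 25.4% of all probes rose and 27.6% fell, so the recovered counts need not hold for the real comparisons. The number of arrays limits the precision.

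The text names the 7 members, every measured partner, and for other lists up to 3 genes with the smallest p in the infarct core against the normal region, plus the 2 genes nearest each member by correlation; 1 gene that this rule picks is not reported here. The members and lists were chosen with earlier results of these data known. Alternatives were 22 other settings of scaling, background correction, filter, block, scan series, probe choice and pigs left out.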

Additional observations from a re-analysis of the deposited data

Results flagged for a closer look

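Of 21 groups of 4 to 6 arrays, 2 held an array far from the others by Dixon's criterion, and chance alone would give about 1 in 20. Both are the infarct core of secretome pig 11. AIF1 stood at 2.904 there, where the other 5 secretome pigs lay between 3.61 and 3.93. SLC7A7 stood at 1.078 there, where the others lay between 1.83 and 2.12. The cause was not tested.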

How the results depend on the processing

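Over 22 alternatives and 1203 values of single members, 1174 kept their direction and their side of the threshold. The count of members that rose in the infarct core against the normal region was 7, or 6 with no replicate block for pig, within scan series 1, without pig 10 and in the authors' values (6 of 6 measured there), and against the border zone it was 6 throughout. With pig as a fixed replicate block it was 7 and 6 as well; the arms could not be compared under that block. In the border zone against the normal region the count was 0, except 1 (LYZ) within scan series 1. Between the arms and in the interactions it was 0 throughout. The calls that changed were FCGR1A in the infarct core against the normal region, 0.78 with no replicate block, 0.69 within series 1 and 0.50 without pig 10, and LYZ in the border zone, 2.70 within series 1. The authors' values, in which dim probes differ less, gave smaller differences from the same probe for CLEC5A (1.32 against 4.24 in the infarct core against the normal region), C5AR1 (0.56 against 1.62), SLC7A7 (0.51 against 1.86) and CD86 (0.82 against 1.56). Signs turned only for values that did not pass. For the arms in the normal region, these were AIF1 (0.17 with no replicate block, 0.10 with scan series as a covariate, -0.55 to 0.18 with 1 pig left out), CD86 (0.045 with no replicate block, 0.11 within series 2), LYZ (-0.0085 within series 1), C5AR1 (-0.078 in the authors' values, -0.14 within series 1, -0.00038 as the mean of its probes, -0.11 to 0.28 with 1 pig left out), SLC7A7 (-0.0051 in the authors' values) and CLEC5A (-0.98 to 0.11 with 1 pig left out). In the infarct core it was FCGR1A (0.14 within series 2). In the interaction of infarct core and border zone these were CLEC5A (-0.26 with normexp, -0.40 in the authors' values), CD86 (-0.080 in the authors' values), SLC7A7 (0.018 within series 1, -0.46 to 0.15 with 1 pig left out) and C5AR1 (-0.42 to 0.18 with 1 pig left out). The causes of these changes were not tested. Of the members, only CLEC5A lay near background, on 4 arrays.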
